A study of Mus musculus with 14 samples.

Results

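Lrp6, Ctnnb1, Rbpj, Hes1 and Gli1, which act in the Wnt, Notch and Hedgehog pathways, were followed across 14 single Tomato-positive cells picked from adult mouse bone. They were taken by gene symbol from the table of transcript levels, where each symbol had 1 row, giving 5 of 9558 rows. All 14 cells came from adult Prrx1-CreERT;Tomato mice of strain C57BL/6 that had been given tamoxifen at 2 mg per 30 g of body weight once a day for 3 days. The Prrx1 promoter drives a Cre recombinase that tamoxifen activates and that turns on the red reporter for good. Red thus marks cells that used that promoter while tamoxifen was present, and their progeny. Marrow was flushed from the tibia, radius and ulna before collagenase digestion, and single red cells were picked by eye after sorting. The cells analysed here form 1 group, and no control group is part of the comparisons. No animal is named, so they count as 1 sample, and no test between conditions was possible.

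The 3 pathways pass a signal from the cell surface to a DNA-binding factor. In the canonical Wnt pathway, ligand bridges a Frizzled receptor to the co-receptors Lrp5 and Lrp6, which stops the destruction of beta-catenin (Ctnnb1) and lets it enter the nucleus to act with TCF/LEF factors. In the Notch pathway, cleavage of the receptor by gamma-secretase frees its intracellular domain, which joins the DNA-binding protein Rbpj and switches on repressors such as Hes1. Hedgehog ligands act through Ptch1 and Smo on the Gli transcription factors, and Gli1 is itself a target that is used as a readout of the pathway. In bone, Wnt signalling favours osteoblast formation, Notch signalling restrains it in mesenchymal progenitors, and Gli1 marks progenitor cells near vessels and the growth plate. The abundance of beta-catenin and of the Notch intracellular domain is set mainly after transcription, and a transcript level reports neither.

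Genes are placed on GRCm38 by GENCODE M21. Lrp6 (ENSMUSG00000030201) spans 134446476 to 134566965 on the minus strand of chromosome 6, and Ctnnb1 (ENSMUSG00000006932) spans 120929216 to 120960507 on the plus strand of chromosome 9. Rbpj (ENSMUSG00000039191) spans 53466152 to 53657362 on the plus strand of chromosome 5. Hes1 (ENSMUSG00000022528) spans 30064384 to 30067796 on the plus strand of chromosome 16, and Gli1 (ENSMUSG00000025407) spans 127329882 to 127341974 on the minus strand of chromosome 10. All 5 are protein-coding. GENCODE also lists processed pseudogenes of Rbpj on chromosomes 4 and 6. These were not analysed here, and reads that match both a pseudogene and Rbpj could have been divided between them.

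The RefSeq promoter table (GRCm38.p6) held 2 of the 5 genes, Rbpj and Ctnnb1. The stretch before the more upstream of each gene's listed start sites is shown because it is the DNA on which the factors of these pathways could act, and it was searched on both strands for the Rbpj core TGGGAA, the TCF/LEF motif CTTTGAT, the Gli motif GACCACCCA and the Hes1 N-box CACNAG. Capitals mark the Rbpj core. The Rbpj stretch is chr5:53590096-53590213 and that of Ctnnb1 is chr9:120933150-120933399, both on the plus strand. Each stretch lies inside the GENCODE span of its gene, and the sequence before the start of that span was not searched.
Rbpj: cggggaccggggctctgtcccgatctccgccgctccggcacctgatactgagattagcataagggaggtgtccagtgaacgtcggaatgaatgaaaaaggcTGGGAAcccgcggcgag
Ctnnb1: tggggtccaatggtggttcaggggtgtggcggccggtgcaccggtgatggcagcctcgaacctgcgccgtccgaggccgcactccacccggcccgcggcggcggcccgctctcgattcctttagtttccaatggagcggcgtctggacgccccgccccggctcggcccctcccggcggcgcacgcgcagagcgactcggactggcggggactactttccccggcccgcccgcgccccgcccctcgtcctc
Over the 250 bases before this start site, Rbpj held the core of its own protein at 2 places, beginning 149 and 65 bases before the start site. The nearer match, on the opposite strand, lies in an exon annotated by GENCODE and is not shown. The Ctnnb1 window held none of the 4 motifs, and the Rbpj window none of the other 3. Before the second listed start site of Ctnnb1 the N-box matched at 2 places, 108 and 61 bases before it, and the other 3 motifs at none. Both N-box matches lie in sequence that GENCODE annotates as exon. Before the second listed start site of Rbpj the one match was the Rbpj core on the opposite strand, 205 bases before it. It is the same place as the nearer Rbpj match above. Of 32851 windows of the same length in that table, 21.6% held TGGGAA, 36.7% CACNAG, 3.21% CTTTGAT and 0.225% GACCACCCA. A match is a description of letters and was not tied to the levels below.

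The level of a gene is its log2 quantile-normalized FPKM (fragments per kilobase of transcript, scaled to the mapped total), read as log2(FPKM + 1). A gene was counted as detected at 1 or more, which is an FPKM of 1. The number of rows at or above this level is 5066 in every cell, though not the same rows, and a level is in effect a rank among the genes of that cell. The cells otherwise differed in content. Cells 11 and 14 carried the most leukocyte transcripts: the summed level of the 7 pan-haematopoietic markers was 64.5 in cell 11 and 67.0 in cell 14, against 7.57 to 46.8 in the other 12 cells, and Ptprc (CD45) was at 8.31 and 6.51. All 7 markers were detected in both and also in cell 8, which had the next highest sum (46.8) and Ptprc at 3.27. Cells 7 and 6 each had 6 of the 7 detected (sums 36.5 and 35.3). Cell 6 had the highest sum of the 7 measured neutrophil markers, 75.2, against 62.5 in each of cells 11 and 14 and 38.9 in cell 7. Neutrophil transcripts were not limited to these cells. Camp and Retnlg were detected in all 14 cells and were lowest in cell 4, at 6.44 and 5.47. Of 8 fibroblast matrix markers, each cell had 7 or 8 detected, and their summed level was lowest in cell 14 (40.4). Among them Dcn was above 7 in every cell and Pdgfra was detected in 11 cells. Prrx1 was detected in 11 cells. Results are given without cells 11 and 14, and without cells 6, 8, 11 and 14, where they matter. Cell 7 was kept throughout, so leaving these cells out does not clear the rest of leukocyte transcripts. By which rows were at 0, the cells also fell into a set of 5 (cells 3, 4, 11, 12 and 13) and a set of 9. Rows at 5 or more in exactly 1 cell were left out of this division. The median correlation of presence over 3363 rows was 0.27 within these sets and 0.14 between them. The sets were drawn from the data, and the labels name no such groups.

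Rbpj and Hes1 were detected in all 14 cells (100%, exact Clopper-Pearson 95% interval 76.8% to 100% each, covering counting error over cells only). Lrp6 was detected in 13 cells (92.9%, 66.1% to 99.8%), Ctnnb1 in 11 (78.6%, 49.2% to 95.3%) and Gli1 in 3 (21.4%, 4.66% to 50.8%). Of all 9558 rows, 51.7% were detected in at least 7 cells, 15.8% in all 14 and 26.9% in at most 3. The 4 members besides Gli1 were all detected in 10 cells, and all 5 in 3 cells.

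**Figure D1:**
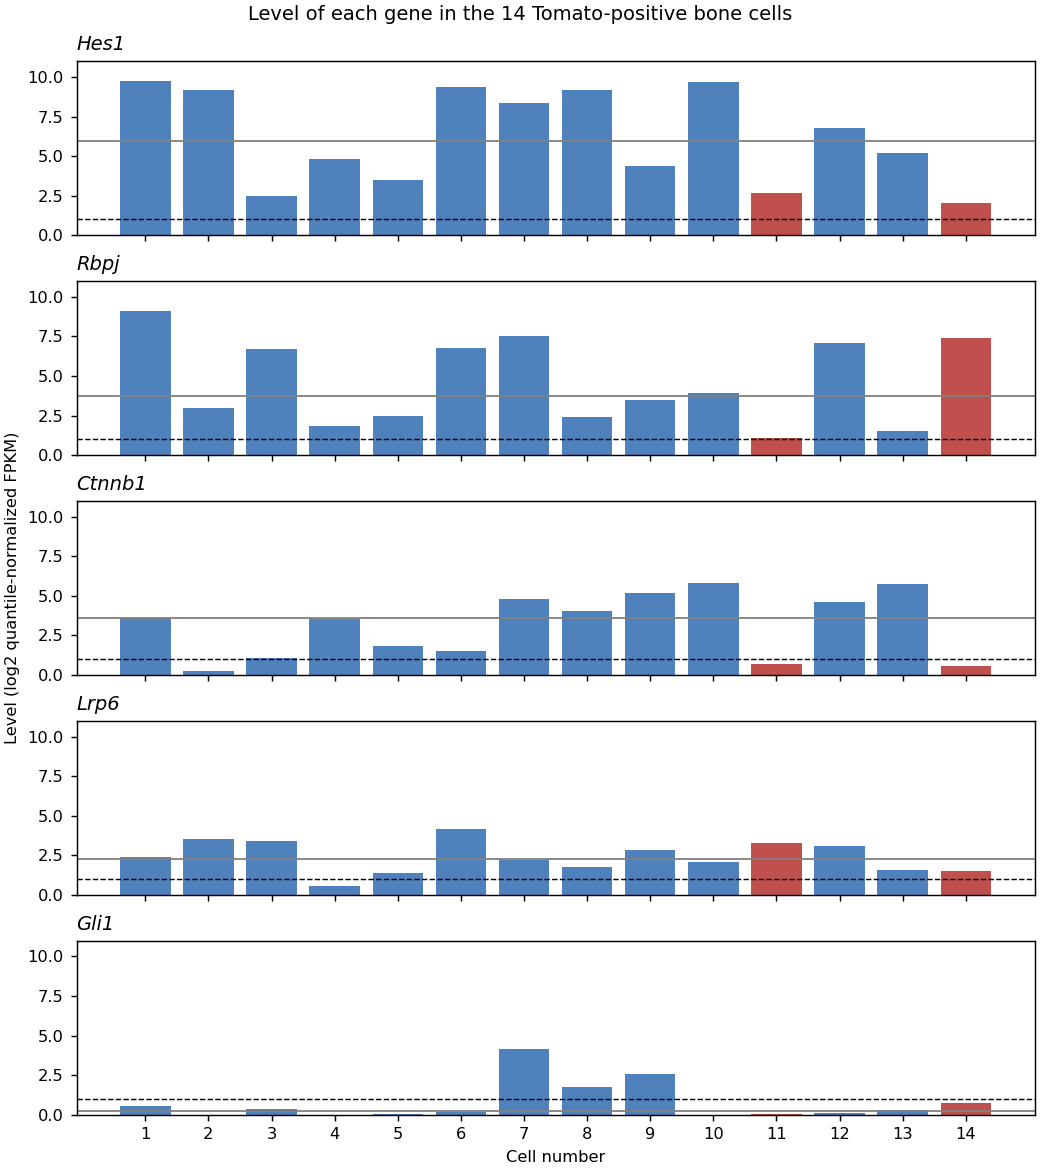
Level of each gene (log2 quantile-normalized FPKM, vertical axis) in each of the 14 cells (horizontal axis). The dashed line is the detection level of 1, the grey line is the median over the cells, and cells 11 and 14, which carried the most leukocyte transcripts, are red. Hes1 stood above 8 in 6 cells, Lrp6 stayed between 0.56 and 4.15, and Gli1 passed the detection level in cells 7, 8 and 9.

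Lrp6, the Wnt co-receptor, was low, with a small spread on the log2 scale. It was at 2.37, 3.53, 3.39, 0.56, 1.35, 4.15 and 2.22 in cells 1 to 7. It was at 1.73, 2.84, 2.07, 3.25, 3.07, 1.55 and 1.49 in cells 8 to 14. Cell 6 was highest and cell 4 lowest, the only cell below the detection level. The median was 2.30 and the SD 1.01, which is smaller than that of most genes: 5.49% of the rows detected in at least 7 cells had a lower SD. Those rows span all levels, and log2(FPKM + 1) compresses low values. With log2(FPKM + 0.1) the SD of Lrp6 was 1.32, and as FPKM it ran from 0.47 in cell 4 to 16.7 in cell 6. In rank, Lrp6 lay between the 38.8th and the 76.0th percentile of its cell, so it was nowhere among the abundant transcripts. At an FPKM of 5 or more, 6 cells held it, and at an FPKM of 10 or more, 2 did.

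Some other rows varied over the cells much as Lrp6 did. Among 4931 other rows detected in at least 7 cells, 25 had a Spearman correlation with Lrp6 of 0.9 or more over the 14 cells. Of the 4932 such rows, 24.6% had any partner at that level and 2.15% had at least 25. The closest named genes were Fchsd2 (rho 0.97), Tmem201 (0.97) and Alms1 (0.96), the last known for a protein at the centrosome and the base of the cilium. All points share the same 14 libraries, and the highest correlations were picked from all of these rows, so they are a description. None of the 25 rows was a Wnt, Notch or Hedgehog list gene, and 1 was a cell type marker, Pecam1, listed as endothelial. Pecam1 was highest in cell 6 (7.07), where Emcn and Tek of the same marker list were at 1.87 and 0.84. Of these 25 rows, 19 were highest in cell 6 and 24 were lowest in cell 4 or 5, as Lrp6 was. Their medians ran from 1.38 to 5.37. Cell 6 had the highest summed level of the 7 measured neutrophil markers (75.2) and cell 4 the lowest (22.2). Next to cell 6 by this sum came cells 11, 14 and 8 (62.5, 62.5 and 50.6), with Lrp6 at 3.25, 1.49 and 1.73. The part of this content in the Lrp6 pattern was not tested.

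Ctnnb1, which encodes beta-catenin, divided the cells more widely. It was at 3.63, 0.27, 1.09, 3.52, 1.86, 1.51 and 4.79 in cells 1 to 7. It was at 4.01, 5.16, 5.79, 0.68, 4.62, 5.76 and 0.59 in cells 8 to 14. Cells 10 and 13 were highest, and cells 2, 11 and 14 were below the detection level. The median was 3.57 and the SD 2.03, and 49.8% of the rows detected in at least 7 cells had a lower SD. The values left a gap between 1.86 in cell 5 and 3.52 in cell 4: 8 cells lay above it, the same number at an FPKM of 5 as at an FPKM of 10, and 6 lay below. In rank the gene ran from the 29.8th to the 85.6th percentile of a cell.

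Some cells near the ends of the Ctnnb1 range also stood out in marker content. Cells 10 and 13, with the most Ctnnb1, had summed levels of the 7 measured osteoblast markers of 47.2 and 47.0, and the third such cell, cell 6, had 34.3 with Ctnnb1 at 1.51. In the other 11 cells this sum ran from 6.87 to 20.9, and Ctnnb1 from 0.27 to 5.16, so Ctnnb1 was high without these markers in cells such as 9 and 7. Cells 11 and 14, with the most leukocyte transcripts, held 0.68 and 0.59 of Ctnnb1, below 11 of the other 12 cells, the exception being cell 2 at 0.27. Cell 2 had a pan-haematopoietic sum of 23.3 and an osteoblast sum of 14.8, each within the range of the other cells. Cells 6, 7 and 8, which also had many leukocyte transcripts, held 1.51, 4.79 and 4.01. Without cells 11 and 14 Ctnnb1 was detected in 11 of 12 cells with a median of 3.82. Without cells 6, 8, 11 and 14 it was detected in 9 of 10 with a median of 4.13. Cell content was not separated from Ctnnb1 by any test. The genes that varied most like Ctnnb1 over the 14 cells were Sdf4 (rho 0.92), a calcium-binding protein of the Golgi, Prdx2 (0.89), a peroxiredoxin, and Chtop (0.85). Only Sdf4 passed 0.9.

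Ctnnb1 was compared with Lrp6 within each cell. Ctnnb1 was the higher in 9 cells and Lrp6 in 5, namely cells 2, 3, 6, 11 and 14. The median difference (Ctnnb1 minus Lrp6) was 1.41, with a range from -3.27 to 4.21 and an SD of 2.56, so it was smaller than the spread between cells. The longest coding transcripts are 3623 bases for Ctnnb1 and 9368 for Lrp6, and a kit that reads only the 3' end gives a long transcript no more reads than a short one. With the division by length undone, the median difference was 0.19 and Ctnnb1 was higher in 8 cells. These data therefore set no order between the 2 genes. Over the 14 cells their rank correlation was -0.30, and their top cells differed.

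Most other genes of the Wnt list were detected in few cells. It names 89 genes, and the 43 of them with no level are not analysed here. Besides Lrp6 and Ctnnb1, 44 had a level. At least 7 cells held 11 of these (25%, against 51.7% of all rows), and fewer cells held the other 33. Every row of the table reached at least 1.61 in some cell, so these counts concern genes that passed that choice of rows. The median of the 44 median levels was 0.40, against 0.96 over all rows. Among 7 measured ligands and secretion genes, Wls, the carrier that brings Wnt proteins to the surface, was detected in 12 cells (median 3.85, highest 7.58 in cell 4). Wnt4 was detected in 11 (median 1.95, highest 6.44 in cell 6) and Wnt11 in 7, with 6.29 in cell 2 and 5.76 in cell 8. Wnt5a, a ligand known for non-canonical signalling, passed the detection level in 3 cells and peaked at 5.98 in cell 1. Ligand transcripts were thus spread over different cells.

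Secreted inhibitors of Wnt reached the highest levels of the list. Sfrp4 had a median of 4.03 over the cells, passed the detection level in 13 of them and reached 11.7 in cell 8 and 10.9 in cell 9. Wif1, found in 8 cells, reached 10.7 in cell 7 and 6.45 in cell 10. Sfrp2 reached 7.84 and Sfrp1 5.83, both in cell 3. The R-spondin genes Rspo2 and Rspo3, whose proteins raise the Wnt response, were each seen in 1 cell, Rspo2 at 6.48 in cell 12 and Rspo3 at 5.16 in cell 9. Sfrp4 was thus widely present, whereas Sfrp1, Sfrp2, Rspo2 and Rspo3 were each detected in at most 4 cells.

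Besides Lrp6 and Ryk, the measured receptors were seen in at most 6 cells. Of 10 measured receptor genes, Lrp6 and Ryk, which encodes a Wnt-binding receptor with an inactive kinase domain, were detected in at least 7 cells, Ryk in 9 with 7.79 in cell 2. Among the Frizzled genes, Fzd1 and Fzd5 were each detected in 3 cells, and Fzd2 and Fzd6 each in 1. Kremen1, a receptor for Dkk proteins, was detected in 6 cells. Lgr5, an R-spondin receptor, was at 7.17 in cell 6. The other Frizzled genes were not analysed here.

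Inside the cell, the casein kinase gene Csnk1a1, a member of the complex that marks beta-catenin for destruction, was the one cytoplasmic Wnt gene that every cell held (median 5.18). Gsk3a and Gsk3b, the kinases of the same complex, were each detected in 7 cells, with medians of 0.98 for both, and its scaffold Apc in 4. Dvl1, which relays the receptor signal, was detected in 4 cells with 6.00 in cell 3. Of the nuclear partners, Tcf7l2 was detected in 7 cells with 6.59 in cell 3, while Tcf7l1 was detected in 2 and Tcf7 in 1. Of 4 measured targets, Myc was held by 12 cells (median 6.78). Ccnd1 was found in 4 and Wisp1 in 5, and Wisp1 peaked at 8.15 in cell 13, followed by cell 10 at 7.06. Cells 13 and 10 were also the 2 with the most Ctnnb1 and the most osteoblast marker transcripts. The other measured targets peaked elsewhere: Myc in cell 8 (8.53), Ccnd1 in cell 7 (4.12), and Nkd2, detected in 2 cells, in cell 3 (4.61). Myc responds to many signals besides Wnt.

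**Figure D2:**
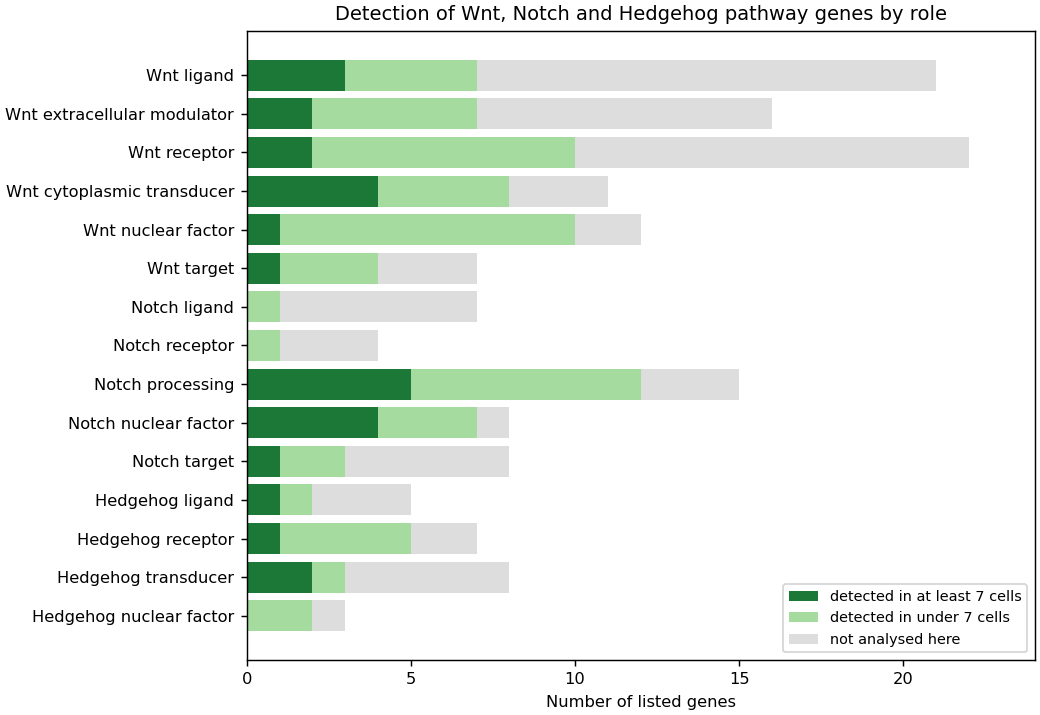
Number of listed genes (horizontal axis) by pathway and role (vertical axis), divided into those detected in at least 7 of 14 cells (dark green), those detected in fewer (light green) and those not analysed here (grey). In total 13 of 46 measured Wnt genes, 10 of 24 Notch genes and 4 of 12 Hedgehog genes were detected in at least 7 cells.

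Rbpj, the DNA-binding factor of the Notch pathway, was present in every cell at very different levels. It was at 9.09, 2.99, 6.70, 1.84, 2.44, 6.76 and 7.50 in cells 1 to 7. It was at 2.42, 3.49, 3.93, 1.11, 7.11, 1.54 and 7.38 in cells 8 to 14. Cells 1, 3, 6, 7, 12 and 14 lay above 6 and the other 8 below 4, with none between. The median was 3.71 and the SD 2.70, and 88.2% of the rows detected in at least 7 cells had a lower SD. In cell 1 Rbpj stood at the 97.5th percentile of the cell. The gene varied most like Sqrdl (rho 0.84), Cyld (0.83), a deubiquitinase that restrains NF-kappaB signalling, and Kitl (0.81), which encodes stem cell factor. Rbpj had no partner at 0.9 or more.

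Hes1, a transcriptional repressor and a target of Notch signalling, had the highest median level of the 5 genes. It was at 9.77, 9.17, 2.45, 4.80, 3.46, 9.36 and 8.36 in cells 1 to 7. It was at 9.17, 4.40, 9.71, 2.66, 6.78, 5.19 and 2.06 in cells 8 to 14. Cells 1, 2, 6, 7, 8 and 10 stood above 8, each above the 95th percentile of its cell, and cells 3, 11 and 14 stood below 3. The median was 5.99 and the SD 2.98, and 95.7% of the widely detected rows had a lower SD. Hes1 messenger RNA is known to be short-lived and to oscillate in other mouse cells, so a single cell gives 1 moment.

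The high Hes1 levels were unevenly spread over the sets of cells formed by rows at 0. In the set of 5, Hes1 ran from 2.45 to 6.78 with a median of 4.80. In the set of 9 it ran from 2.06 to 9.77 with a median of 9.17, and all 6 cells above 8 were in this set. The ranges overlap, and the part of whatever separates the sets was not tested. Most of the 14 cells are in the set of 9, and the share of all rows with such a split was not counted. The 2 cells with the most leukocyte transcripts, at 2.66 in cell 11 and 2.06 in cell 14, were among the 3 lowest, and without them the median was 7.57. Cells 6, 7 and 8, which also had many, were high in Hes1, at 9.36, 8.36 and 9.17. Without cells 6, 8, 11 and 14 the median was 5.99, as over the 14 cells. Genes that varied most like Hes1 were Arid4a (rho 0.80), Josd2 (0.77) and Prpsap1 (0.76). These are weaker than the median best correlation of a widely detected row, 0.86, and no gene followed Hes1 closely.

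Hes1 and Rbpj were set side by side because the one protein acts on the gene of the other. Both were detected in all 14 cells, in 7 cells both were at an FPKM of 5 or more, and in 6 both were at an FPKM of 10 or more. Their rank correlation over the cells was 0.28. Hes1 was the higher in 11 cells and Rbpj in 3, namely cells 3, 12 and 14. The median difference (Hes1 minus Rbpj) was 1.28, with a range from -5.32 to 6.75 and an SD of 3.51. The longest coding transcripts are 1468 bases for Hes1 and 5485 for Rbpj, and with the division by length undone the median difference was -0.21 (SD 3.62), with Hes1 higher in 7 cells and Rbpj in 7. These data set no order between these 2 genes either. Cells 1, 6 and 7 had Hes1 above 8 and Rbpj above 6. Cells 2, 8 and 10 had Hes1 above 8 with Rbpj between 2.42 and 3.93, whereas cells 3 and 14 had Rbpj above 6 with Hes1 below 3. All combinations of high and low thus occurred.

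**Figure D3:**
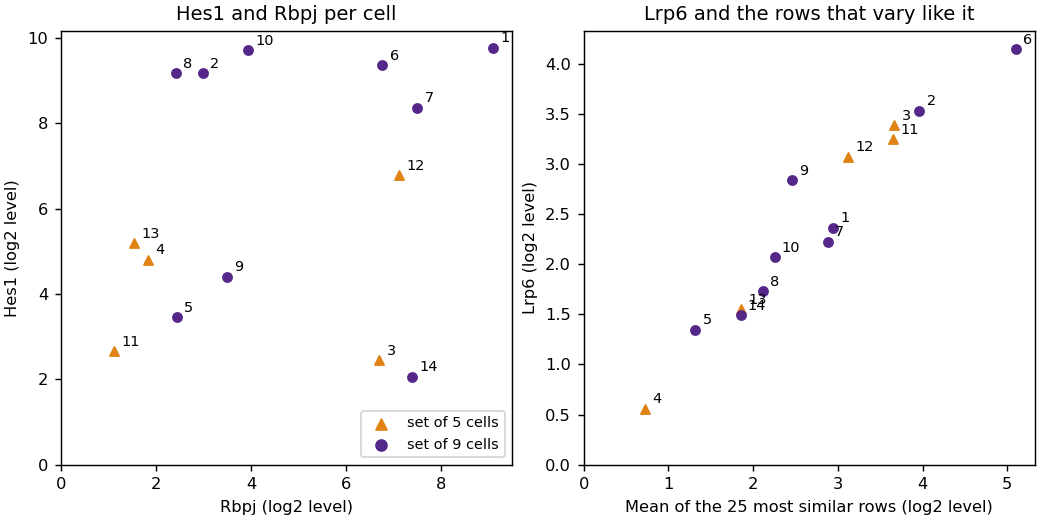
Left, Hes1 against Rbpj in each cell (log2 levels, cells numbered). Right, Lrp6 against the mean level of the 25 rows chosen for a rank correlation of 0.9 or more with it, so its closeness follows from the choice. Triangles are the set of 5 cells and circles the set of 9 formed by rows at 0. Cells 3 and 14 combine high Rbpj with low Hes1, and cells 2, 8 and 10 the reverse.

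The Notch list held 42 genes, of which 24 had a level. At least 7 cells held 10 of them (41.7%, against 51.7% of all rows), and the median of their medians was 0.69, against 0.96 over all rows. Of 7 listed ligands and 4 listed receptors, 1 each had a level. The ligand gene Jag1 was found in 4 cells and peaked at 4.85 in cell 2, followed by 4.58 in cell 9. The receptor gene Notch2 was also found in 4 cells and peaked at 7.60 in cell 6, followed by 4.13 in cell 2. Jag1 or Notch2 was found in 7 cells and both in 1, cell 2, so 7 of the 14 cells with Hes1 showed neither. The other ligands and receptors were not analysed here, and low capture of a transcript in a single cell cannot be told apart from its absence.

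Of 12 measured genes of Notch receptor processing, 5 were detected in at least 7 cells (41.7%, against 51.7% of all rows). Psenen, a small subunit of gamma-secretase, was held by all 14 cells and had the highest median of the list, 8.35. Adam17, a protease that can cut Notch at the surface, was detected in 13 (median 2.56), and Adam10, the main such protease, in 5. Ncstn, another gamma-secretase subunit, was detected in 12 (median 1.97). Psen2, which encodes a catalytic subunit, was detected in 7 cells and peaked at 7.95 in cell 7. Numbl, a relative of the Notch inhibitor Numb, was detected in 9. Aph1a, Aph1b and Aph1c were detected in 4, 3 and 4 cells. Pofut1 and Rfng, which add sugars to Notch receptors, were detected in 3 and 4, and Mib1, a ubiquitin ligase for Notch ligands, in 6. Short transcripts such as Psenen are raised against long ones by the division by length.

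Of the nuclear partners, the corepressor gene Ncor1 was detected in all 14 cells (median 3.19, highest 8.76 in cell 6), Snw1 in 9, the coactivator Maml3 in 8 and Maml1 in 1. Spen, a corepressor that binds Rbpj, was detected in 6. Targets other than Hes1 were low: Hey1 passed the detection level in cell 9 (2.67) and cell 10 (2.40), and Dtx1 did so in 5 cells, with its peak of 3.60 in cell 2. Cell 9, with the most Hey1, had Hes1 at 4.40. Hes1 was the one measured Notch target in at least 7 cells.

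Gli1, the Hedgehog effector and target, was found in the fewest cells of the 5 genes. Cell 7 held it at 4.13, cell 9 at 2.60 and cell 8 at 1.73. In cells 1, 3, 5, 6, 11, 12, 13 and 14 it lay between 0.05 and 0.76, and in cells 2, 4 and 10 at 0. The median was 0.26 and the SD 1.23. Cell 8, at an FPKM of 2.31, was the lowest above the detection level, and cell 14, at an FPKM of 0.69, the highest below it. At an FPKM of 10 or more, 1 cell was left, cell 7. All 3 cells with Gli1 belonged to the set of 9 cells, where Gli1 was highest at 4.13, against at most 0.33 in the set of 5. The set of 9 holds most of the 14 cells, and Gli1 was itself among the rows that formed the sets. What separates the sets was not tested against Gli1. No list of similar genes is given for it, since most of its values are near 0.

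Ptch1, the Hedgehog receptor that like Gli1 is a target of the pathway, passed the detection level in cell 7 (3.63) and cell 9 (1.79) and was at 0 in 8 cells. Both cells were among the 3 with Gli1, and the order was the same. Of 930 genes detected in exactly 2 cells, 29 (3.12%) had both within these 3 cells, a count chosen after the values were seen. Cell 9 was also the one cell with Gli3, at 2.64. Cells 7 and 9 were rich in the stromal niche transcripts Lepr (9.97 and 6.12) and Cxcl12 (6.87 and 11.4), whereas cell 8 had 2.53 and 2.49. The 3 cells with Gli1 held Prrx1 at 4.26 (cell 7), 3.78 (cell 8) and 5.06 (cell 9). Cell 2, with the highest Lepr (10.6), had Gli1 at 0. Cell 6 had Lepr at 6.37 and Cxcl12 at 5.73 with Gli1 at 0.20, and cell 11 had Cxcl12 at 6.56 with Gli1 at 0.05. Prrx1 was higher in cells 1 (7.31) and 3 (5.98), where Gli1 was at 0.57 and 0.33. None of these 3 genes thus marked the cells with Gli1.

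Of 23 listed Hedgehog genes, 12 had a level, and 4 of these (33.3%, against 51.7% of all rows) were held by at least 7 cells. The median of the medians was 0.23, against 0.96 over all rows. Those 4 were Gas1, Spop, Kif3a and Hhat. Gas1, a surface co-receptor for Hedgehog ligands, was held by 9 cells and stood highest in cell 12 (7.12), followed by cells 7 (6.24) and 3 (6.07). Spop, which takes part in Gli protein turnover, was detected in 11 (median 2.68), Kif3a, a motor needed to build the cilium where the signal is passed on, in 10 (1.38), and Hhat, which adds the palmitoyl group to Hedgehog ligands, in 10 (1.22). Smo, the signalling receptor, was detected in 4 cells, 3, 9, 10 and 13, of which only cell 9 had Gli1. The co-receptor genes Cdon and Boc were detected in 3 and 4 cells. Cell 9 had 9 of the 12 genes detected, against 1 to 6 in the other cells. It also had the most Wnt list genes detected, 26 of 46, against 9 to 20 in the others, so the high count was not limited to Hedgehog genes.

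**Figure D4:**
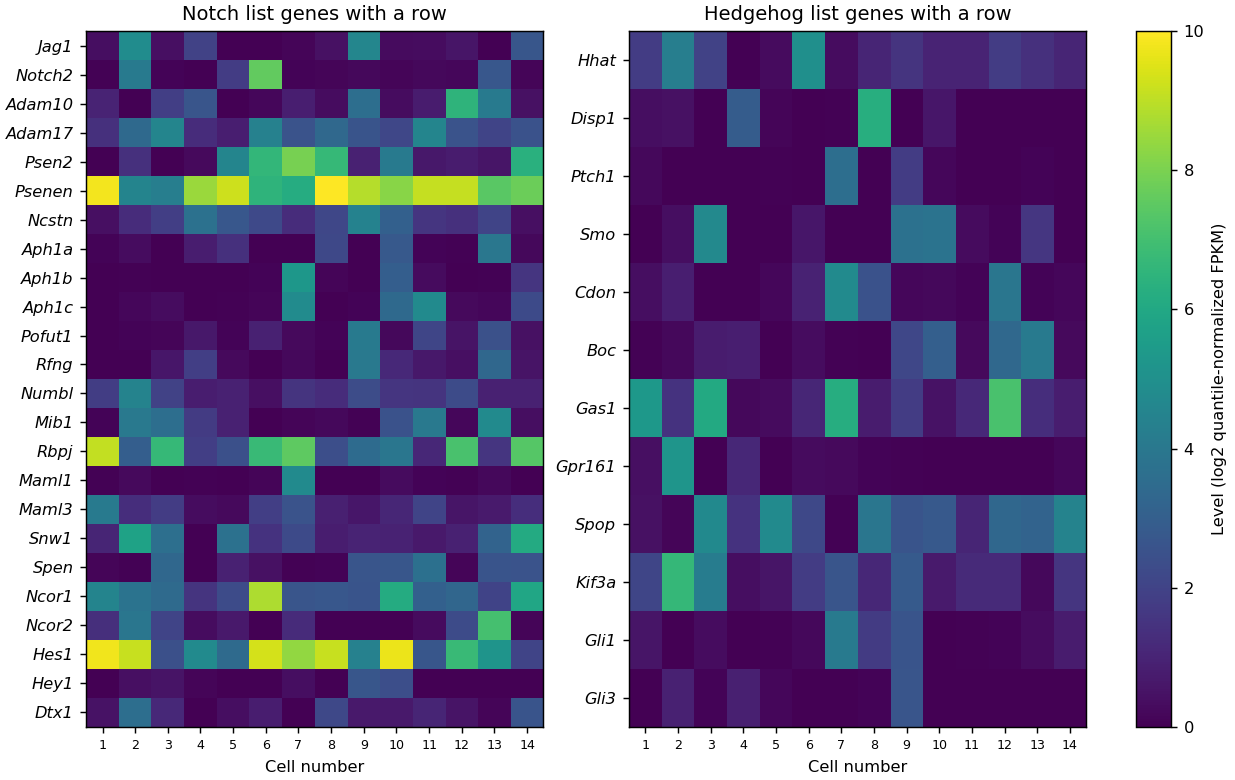
Level (colour, log2 quantile-normalized FPKM from 0 to 10, higher values shown at the top colour) of each measured Notch (left) and Hedgehog (right) list gene in each of the 14 cells. Psenen was above 4 in every cell, Hes1 was above 8 in 6, and Gli1 and Ptch1 were detected together in cells 7 and 9.

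By median the order of the 5 genes was Hes1 (5.99), Rbpj (3.71), Ctnnb1 (3.57), Lrp6 (2.30) and Gli1 (0.26), on a scale divided by transcript length. Neighbours in that order were compared within cells. Hes1 exceeded Rbpj in 11 cells, Rbpj exceeded Ctnnb1 in 9 (median difference 1.53, SD 3.45), Ctnnb1 exceeded Lrp6 in 9 and Lrp6 exceeded Gli1 in 13 (1.54, SD 1.64). For each neighbouring pair the median difference was smaller than its SD over the cells. With the division by length undone the medians kept this order, at 6.53, 6.07, 5.34, 5.23 and 0.84, but Hes1 exceeded Rbpj in 7 cells, Ctnnb1 exceeded Lrp6 in 8, and Lrp6 exceeded Gli1 by a median of 3.73, more than the SD of 2.30. Hes1 exceeded Gli1 in all 14 cells, by a median of 4.84, and Rbpj exceeded Gli1 in all 14, by 3.18. The rank correlations among the 5 genes ran from -0.30 for Ctnnb1 and Lrp6 to 0.45 for Rbpj and Gli1, and with 14 cells of 1 sample they are descriptions.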

How the data were processed

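Per the labels' protocols, single-cell libraries came from the SMART-Seq v4 3' DE and Nextera XT kits. Per the submitters' processing notes, TopHat2 and Cufflinks were used with GRCm38 (versions not given in the sources used here). The deposited table is named for FPKM, but its log2 values, read as log2(FPKM + 1), are spread alike in all cells, which is what quantile normalization gives. No label states either step, and the values carry them: the largest is 14.58 throughout, and down to rank 7304 values of equal rank lie within 0.0246 of each other. Powers of 2, less 1, summed to 646250 to 646278 per cell. Differences in RNA content or depth cannot be seen, depth is unknown, and no limit that needs it is given. FPKM divides by length, which understates long genes in 3' data. To undo this, levels were turned back to FPKM and multiplied by the longest coding transcript length. Those levels were already quantile-normalized and the length used by Cufflinks is unknown, so the result is approximate. All 14 columns were matched to samples by title and 0 were left over. Where a symbol had several rows, the first was kept for lists and correlations.

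The cells are 1 sample, so no test was run. Python 3.11.15, pandas 2.3.3, numpy 2.4.6 and scipy 1.17.1 were used. Computed were detection counts, medians, SDs over cells, percentiles within cells and Spearman correlations, the last checked on simulated data. Named genes were the 5 members, the pathway and marker list genes, and the 3 genes most correlated with each member, without predicted genes. One gene of the Notch list is left out of it and is not reported here. Lepr, Cxcl12 and the comparison by sets of cells were chosen after the values were seen. The members and lists were chosen with earlier results of these data known. Alternatives were other detection thresholds, pseudocounts, cells left out and the length division undone.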

Additional observations from a re-analysis of the deposited data

How the results depend on the processing

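No paired analysis was possible because the cells form 1 group. Over 16 results, 91 alternatives were run. In 64 of them a count stayed within 1.5 times the reported one or a median within 1 SD over the cells, which is a wide margin here, and 26 moved the value further. The median of Hes1 minus Rbpj turned to -0.21 with the length division undone, an alternative chosen after seeing the data, against 1.28. Counts of cells followed the threshold. At an FPKM of 5 or more, Lrp6 was left in 6 cells, Rbpj in 9 and Hes1 with Rbpj in 7. At an FPKM of 10 or more, Lrp6 was left in 2 cells, Rbpj in 8, Hes1 with Rbpj in 6 and Gli1 in 1, while Gli1 was above 0 in 11. With detection taken as any value above 0, 43 Wnt list genes were found in at least 7 cells (13 with a level of 1 or more), 23 Notch genes (10) and 11 Hedgehog genes (4). The threshold of 5 left 5, 4 and 1 of them, that of 10 left 5, 3 and 0, and asking for at least 10 cells left 7 Wnt and 6 Notch genes. With a pseudocount of 10 the median of Lrp6 was 3.80 and that of Gli1 3.35. With 0.1 the median of Gli1 was -1.77, a change of sign that a pseudocount under 1 gives to any low value. Without cells 3, 4, 11, 12 and 13, an alternative chosen after seeing the data, 9 cells were left: Ctnnb1 was detected in 7, Rbpj and Hes1 in 9 each, counts that fall because there are fewer cells, and the median of Hes1 was 9.17, against 5.99. The Ctnnb1 minus Lrp6 median ran from 0.19 with the length division undone to 1.94 without cells 6, 8, 11 and 14. Single cells are 1 moment each, and a low value cannot be told apart from poor capture.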
